A study of Mus musculus with 12 samples.

Results

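The mitochondrial chromosome of the mouse carries 37 genes, and all of them were read out in a bulk RNA sequencing experiment on the trigeminal ganglion, the sensory ganglion that supplies the cornea and face. They were taken by position: of 56941 gene identifiers in the deposited count tables, 37 were placed on chromosome MT. There were 13 protein-coding genes, 2 rRNA genes and 22 tRNA genes. All 37 stood at the same coordinates and strand in the GENCODE M21 annotation of the build GRCm38, so their names hold whichever of the 2 mouse builds the reads were aligned to.

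Female C57BL/6J mice were 8 weeks old, and 12 libraries fell into 4 groups of 3. Controls were untreated. Injured mice had a keratectomy of 1.5 mm, a removal of superficial cornea, in an eye picked at random, and their ganglia were taken 2 weeks later. Another group had the same injury and electrical stimulation at 300 µA and 20 Hz, for 4 min a day over 14 days. The remaining group had the stimulation and no injury. Per the labels, stimulated mice were under isoflurane at every session, and the injured mice had ketamine, xylazine and the analgesic Ethiqa XR, so the effects of these drugs and of the procedures cannot be told apart. A sham procedure is mentioned in the design, but no library is labelled as sham, and the title's diabetic neuropathy appears in no label. Neither the number of mice behind a library nor the side of the ganglion is given, so a p-value here reflects only how far these libraries spread, which may be technical.

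Mitochondria make their own RNA. Each strand of the circular genome is transcribed as a long precursor, tRNAs lying between the other genes mark the places where it is cut, and the mRNAs receive short poly(A) tails. The 13 proteins are subunits of 4 complexes of the respiratory chain: complex I, which takes electrons from NADH, complex III, complex IV, which reduces oxygen, and complex V, the ATP synthase. The 2 rRNAs and 22 tRNAs serve the mitochondrial ribosome. The machinery that copies, cuts and degrades this RNA is encoded in the nucleus. Sensory neurons, with their long axons and ion gradients, depend strongly on this ATP supply.

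The ends of the genes show how tightly the chromosome is packed. In 3 of the 13 protein-coding genes only 1 base stood beyond the last full codon. That base is the T of a stop codon which, as background, the poly(A) tail completes to TAA. Below are the last 30 bases of 5 genes (GENCODE M21 transcripts, GRCm38, plus strand), with the stop codon or its first base in capitals. The first 2 carry a full stop codon and the other 3 do not.
mt-Nd1, MT:3678-3707: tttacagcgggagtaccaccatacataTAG
mt-Nd5, MT:13536-13565: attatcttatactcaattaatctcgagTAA
mt-Co3, MT:9361-9390: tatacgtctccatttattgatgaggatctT
mt-Nd4, MT:11515-11544: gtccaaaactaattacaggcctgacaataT
mt-Cytb, MT:15259-15288: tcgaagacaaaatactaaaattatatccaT

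mt-Atp8 and mt-Atp6, the 2 subunits of ATP synthase made in the mitochondrion, share 43 bases, and because reads in overlapping genes were counted for each gene, a read there adds to both. The shared bases are in capitals in the end of the first gene and the start of the second (same source and strand).
mt-Atp8, MT:7910-7969: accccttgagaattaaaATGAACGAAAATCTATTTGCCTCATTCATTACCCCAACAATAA
mt-Atp6, MT:7927-7986: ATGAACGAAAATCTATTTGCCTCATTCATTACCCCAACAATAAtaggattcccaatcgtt

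Part of the mitochondrial genome is also present in nuclear chromosome 1. In GRCm38, 7 pseudogenes at chr1:24611535-24616197 held exact copies of 150-base windows of MT:6394-11042. Another pseudogene, Gm13341 on chromosome 2, held 24 such windows of MT:7070-7242. A read of 150 bases inside such a window fits both places equally well, and per the file headers reads placed at several positions were not counted. All but a few of the windows within mt-Co2, mt-Atp6, mt-Co3, mt-Nd3 and mt-Nd4l had such a copy, from 97.0% in mt-Nd3 to 99.8% in mt-Co3. The share was 59.2% in mt-Nd4 and 23.6% in mt-Co1. None was found in mt-Nd1, mt-Nd2, mt-Nd5, mt-Nd6, mt-Cytb or the rRNAs, nor in mt-Atp8, which lies between 2 copied genes but under no annotated pseudogene. mt-Co2 and its pseudogene Gm28661 were the same in 681 of 681 bases compared, and the first 60 of them show it (Gm28661 on the minus strand).
mt-Co2, MT:7013-7072: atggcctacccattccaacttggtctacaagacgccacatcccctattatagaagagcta
Gm28661, chr1:24615506-24615565: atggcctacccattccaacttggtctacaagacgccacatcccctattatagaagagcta

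Counted reads per library ran from 7.95 to 10.8 in units of 1e6, with both ends in treated groups and the controls at 8.40 to 8.93. The nuclear genes matter here as the rest of the total. Although the counting models were those of GRCm39, 98.6% to 99.3% of nuclear counts fell in the 35.9% of intervals that lay over GRCm38 exons. Nuclear genes were therefore named by position, and shares of counted reads are not shares of all RNA. Of 14 sensory neuron markers, 6 could be named, and their summed level was 4236 to 4910.4 CPM (counts per 1e6, with library totals adjusted by the TMM factor described below) in controls. It was 6492 to 7988 CPM after injury alone, 5732 to 10444 CPM in injured and stimulated libraries, and 7825 to 9423 CPM where stimulation was given without injury. Markers of meninges and fibroblasts (5 of 7 named) summed to 24786 to 25804 CPM after injury and to 3469 to 8653 CPM in the other 9 libraries. Most of that sum was 1 gene, Ptgds, at 21447 to 22180 CPM after injury and 5036 to 5504 in controls, while Dcn was at 2935 to 3541 and 2632 to 3545 CPM. Oligodendrocyte markers (4 of 7 named) summed to 194 to 320 CPM in controls, 586 to 1065 after injury, 145 to 332 after both treatments and 252 to 458 with stimulation only. Macrophage markers (4 of 7 named) summed to 113 to 131, 184 to 219, 94.3 to 109 and 71.9 to 97.1 CPM in the same order. For myelinating Schwann cells (3 of 7 named) the sums were 2548 to 3398, 4521 to 6478, 2595 to 5117 and 3832 to 4246 CPM. Most of each sum was Prx, at 1653 to 2314 CPM in controls and 2938 to 3415 with stimulation alone. Mal went the other way there, at 836 to 1014 and 724 to 739 CPM, and Mag overlapped, at 59.3 to 105 and 101 to 170. For satellite glia (3 of 7 named) they were 386 to 498, 371 to 516, 303 to 384 and 327 to 446 CPM. Within that list Kcnj10 was higher after injury, and Cdh19 and Ptprz1 were lower. Skeletal muscle markers (3 of 10 named), whose tissue is rich in mitochondria, summed to 4.99 to 603 CPM in controls and 109 to 334 CPM after injury. In the 6 stimulated libraries they summed to 3.08 to 62.3 CPM.

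The mitochondrial genes took a smaller share of the counted reads in every treated library than in any control. The share was 28.7%, 22.8% and 28.2% in the 3 controls (mean 26.6% ± 3.27, SD, n = 3). After injury it was 20.4%, 19.8% and 22.6% (20.9% ± 1.50). After injury with stimulation it was 17.3%, 17.2% and 16.5% (17.0% ± 0.422), and with stimulation alone 12.4%, 14.6% and 10.4% (12.4% ± 2.08). The 4 groups did not overlap, and the mean with stimulation alone was 0.468 of the control mean, against 0.640 after injury with stimulation and 0.786 after injury. The sums behind these shares were 0.983 to 2.57 (in units of 1e6 reads) per library, so the Wilson 95% intervals are narrow, for example 28.706% to 28.766% in the first control, and cover counting error at most. They are too narrow even for that, since both reads of a pair were counted singly and a read could count for several overlapping genes. In bulk tissue, fewer cells of a type and less RNA per cell cannot be told apart. The summed neuron and Schwann cell values, and the Ptgds, oligodendrocyte, macrophage and muscle values above, moved with some of the groups. Their part in the share was not tested. No p-value is given for the share, which is a score over all members.

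**Figure D1:**
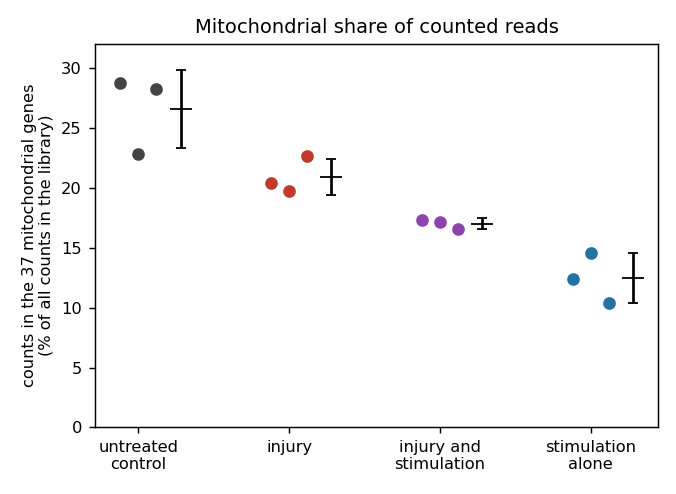
Share of counted reads in the 37 mitochondrial genes (% of all counts in the library, vertical axis from 0) for each of the 12 libraries, as points by group, with the mean and SD of n = 3 beside them. The controls sit between 22.8% and 28.7% and the libraries with stimulation alone between 10.4% and 14.6%, with no overlap between any of the groups.

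Single genes were tested with edgeR's quasi-likelihood test over all 13053 intervals that passed the filter on low counts, with Benjamini-Hochberg adjustment over all of them, and called at an adjusted p under 0.05. Of the 37 genes, 36 were tested. mt-Tk, a lysine tRNA, did not exceed 1.22 CPM in any library and failed the filter. Values below are CPM, in the order of replicates 1 to 3, and the error given with a log2 fold change is its standard error.

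Stimulation without injury went with lower levels over nearly the whole chromosome. Against untreated controls 28 of the 36 tested genes fell and 0 rose: all 13 mRNAs, both rRNAs and 13 of 21 tRNAs. Their median log2 fold change was -1.26, against 0.03 over all intervals tested, of which 11.7% were called lower and 18.2% higher. In 30 of the 36 every stimulated library was below every control, against 21% of all intervals. Of the 28 calls, 21 held in each of the 12 fits that left out 1 library.

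Cytochrome c oxidase, complex IV, has its 3 catalytic core subunits here. mt-Co1, which holds the site where oxygen is reduced, was the highest gene of the chromosome, at 113119, 86233 and 110471 CPM in controls and 41655, 46107 and 32088 with stimulation alone. Every control was above every stimulated library, and the gene fell by 1.37 on the log2 scale (SE 0.22, adjusted p = 0.00031). mt-Co2, the subunit that receives electrons from cytochrome c, went from 1273, 570.3 and 1224 CPM to 239, 296 and 249.9 (log2 fold change -1.97 ± 0.30, adjusted p = 0.00029). mt-Co3 spread more widely among controls, at 759.7, 300.1 and 1782 CPM, but its stimulated libraries, at 194, 146 and 107, were still all lower (-2.67 ± 0.60, adjusted p = 0.0077).

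The 7 subunits of complex I in the mitochondrial genome form the membrane arm that moves protons. mt-Nd5, the outermost of the large pump-like subunits, had the smallest adjusted p of all 36 genes: 26278, 18701 and 24299 CPM in controls and 8824, 10407 and 7673 with stimulation (log2 fold change -1.36 ± 0.20, adjusted p = 0.00018). mt-Nd4 went from 26279, 20474 and 26587 CPM to 11264, 13149 and 7877 (-1.18 ± 0.23, adjusted p = 0.0011). mt-Nd1, near the site where quinone binds, changed least of the 13 mRNAs, from 24796, 19825 and 24692 CPM to 13221, 17203 and 9311 (-0.80 ± 0.23, adjusted p = 0.014). The mt-Nd1 call was lost in 4 of the 12 fits that left out a library (adjusted p up to 0.059). mt-Nd5, mt-Nd4 and mt-Nd1 show groups that did not overlap, with stimulated replicate 2 the highest of its group each time. mt-Nd2 fell by 0.94 and mt-Nd6 by 0.89 on the log2 scale. mt-Nd6 is the one mRNA encoded on the other strand, and since counting was unstranded its reads cannot be told from antisense RNA. The small mt-Nd3 and mt-Nd4l were low genes with log2 fold changes of -1.60 ± 0.23 and -3.30 ± 0.62. mt-Nd4l fell from 452, 126 and 407 CPM to 24.3, 47.5 and 28.4.

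Complex III has 1 mitochondrial subunit, cytochrome b. mt-Cytb, second to mt-Co1 per length, stood at 50769, 39398 and 51459 CPM in controls and 21429, 25513 and 16022 with stimulation (log2 fold change -1.17 ± 0.22, adjusted p = 0.00093). Both ATP synthase genes changed more than that. mt-Atp6, part of the proton channel, went from 2134, 2359 and 1694 CPM to 226, 519.9 and 207 (-2.70 ± 0.53, adjusted p = 0.0027). mt-Atp8 went from 1335, 1024 and 1006 CPM to 66.6, 201 and 42.6 (-3.44 ± 0.80, adjusted p = 0.011), and its call was lost when stimulated replicate 1 was left out (adjusted p = 0.051). No library of one group reached the other in any of these 3 genes.

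The rRNAs stood below most mRNAs per length in these poly(A)-enriched libraries. mt-Rnr2, the large subunit rRNA, was at 4468, 3793 and 4019 CPM in controls and 1575, 2985 and 1433 in stimulated libraries (log2 fold change -1.03 ± 0.23, adjusted p = 0.0031). mt-Rnr1, the small subunit rRNA, was at 2392, 2024 and 2151 against 1081, 1998 and 871 CPM. Stimulated replicate 2 was just under the lowest control, and the call (-0.73 ± 0.26, adjusted p = 0.039) was lost in 9 of the 12 fits that left out a library.

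**Figure D2:**
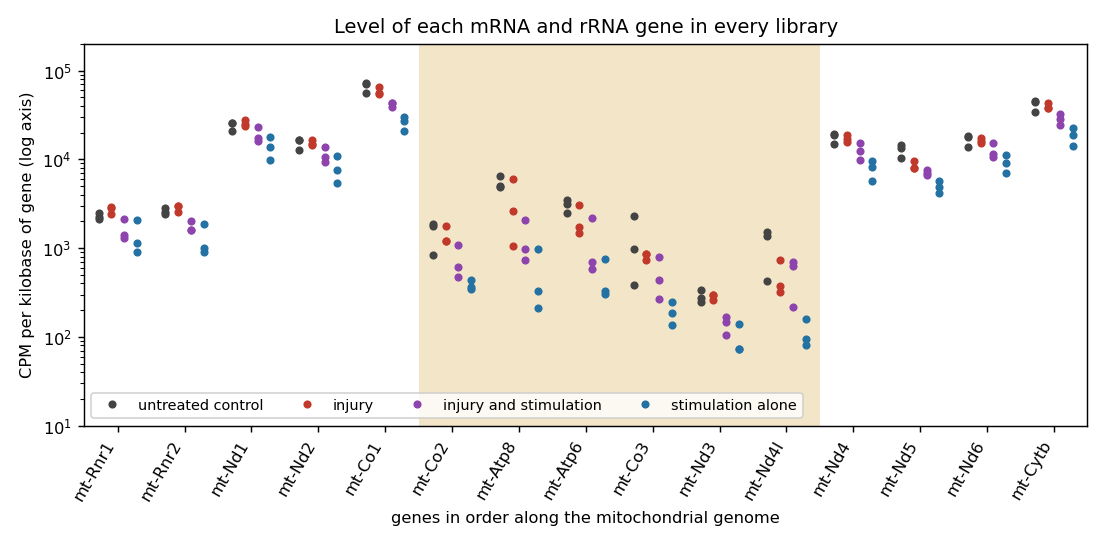
Level of the 13 mRNA and 2 rRNA genes in CPM per kilobase of gene (log axis), in their order along the chromosome, 1 point per library and coloured by group; the shaded genes lie inside the stretch copied on chromosome 1. Stimulation alone is the lowest group for most genes, and the shaded genes lie below their neighbours in all 4 groups.

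Mature tRNAs have no poly(A) tail and are shorter than a read. A count for a tRNA gene can come from a read with as little as 1 base in it, so these values include precursors and reads that run in from a neighbour. The 3 highest were mt-Te (glutamate), next to mt-Cytb, at 1260.3, 955 and 1250.2 CPM in controls and 582, 810.0 and 507 with stimulation alone, then mt-Tl1 (leucine) and mt-Tc (cysteine). The called tRNAs were mt-Te (log2 fold change -0.87), mt-Tl1 (-0.70), mt-Ti (-0.83), mt-Tw (-0.97), mt-Tp (-0.89), mt-Tr (-1.10), mt-Th (-1.39), mt-Tg (-1.47) and mt-Ts1 (-2.48), and the cluster of mt-Ta (-1.25), mt-Tn (-1.27), mt-Tc (-1.39) and mt-Ty (-1.53) just ahead of mt-Co1. The cluster of 4 carries the tRNAs for alanine, asparagine, cysteine and tyrosine, and mt-Ty went from 213, 130.3 and 173 CPM to 50.8, 84.9 and 43.7 (SE 0.22, adjusted p = 0.00019). The calls of mt-Th, mt-Tr, mt-Tl1 and mt-Ti were lost in 9, 4, 3 and 3 of the 12 fits that left out a library. Of the 9 genes encoded on the minus strand 8 were called lower, and of the 27 tested on the plus strand 20. As counting was unstranded, this split does not separate the RNA of the 2 strands. Control replicate 3 stood apart in 2 tRNAs, with 259 CPM of mt-Tq against 27.0 and 43.9 in the other 2 controls, and 77.0 CPM of mt-Td against 1.99 and 2.15. Neither of these was called. The 8 tRNAs tested and not called had adjusted p from 0.051 to 0.46.

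After injury alone few of the members passed the test. Of the 36 tested genes 1, mt-Nd5, fell and 0 rose, where 11.7% of all intervals were called lower and 19.3% higher, and the members' median log2 fold change was -0.14. mt-Nd5 went from 26278, 18701 and 24299 CPM to 14469.9, 14667 and 17409, with no overlap (log2 fold change -0.57 ± 0.19, adjusted p = 0.033), and the call did not survive leaving out control 1, control 3, injury 1 or injury 2. The other highly expressed genes overlapped: mt-Co1 stood at 86140.4, 84412 and 102143 CPM after injury (-0.18 ± 0.21, adjusted p = 0.54) and mt-Cytb at 43000.2, 43796 and 49121 (-0.06 ± 0.22, adjusted p = 0.86). Neither rRNA passed the test, with mt-Rnr1 at 2798, 2313 and 2694 CPM (0.25 ± 0.25, adjusted p = 0.48). The share of counted reads given above is taken of the library total, whereas the test scales libraries by their typical interval (TMM, the trimmed mean of M values). With library totals alone the median of all intervals moved from 0.03 to -0.19 in this comparison, and 2 members were called lower.

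In injured mice, stimulation went with lower values for nearly all members, but few passed the test. Injury with stimulation against injury gave log2 fold changes below 0 for 35 of 36 genes, with a median of -0.62 against 0.00 over all intervals, and in 24 of them the stimulated libraries were all below the others, against 10.1% of all intervals. Only mt-Nd3, a small membrane subunit of complex I, was called (1.5% of all intervals were called lower and 0.0383% higher). It went from 90.1, 103 and 102 CPM to 57.9, 51.2 and 36.0 (log2 fold change -1.03 ± 0.23, adjusted p = 0.028), and the call was lost in 6 of the 12 fits that left out a library, where the adjusted p reached 0.31. mt-Co1 stood at 67553, 60979.8 and 66193 CPM after injury with stimulation, below all 3 libraries with injury alone, but did not pass the test (-0.49 ± 0.21, adjusted p = 0.35). At an unadjusted p under 0.05 there were 14 members, against 12.2% of all intervals.

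Against untreated controls, injury with stimulation had 11 members lower and 0 higher, with 4.93% of all intervals called lower and 12.3% higher, a median log2 fold change of -0.78 over the members and -0.02 over all intervals. These were mt-Nd3 (-1.05 ± 0.23, adjusted p = 0.0068), mt-Nd5 (-0.83 ± 0.19, adjusted p = 0.0088), mt-Co2 (-1.06 ± 0.30, adjusted p = 0.022) and mt-Co1 (-0.67 ± 0.21, adjusted p = 0.039), and the tRNAs mt-Ti, mt-Tn, mt-Tc, mt-Ty, mt-Tg, mt-Tr and mt-Th. In 18 of the 36 all treated libraries were below all controls, against 15.2% of all intervals. mt-Nd5 was at 12717, 13977 and 12202 CPM, below every control. None of the 11 calls was made in each of the 12 fits that omit a library: 0 were made without injury and stimulation replicate 3, 1 without control replicate 1 and 2 without control replicate 3. Calls were scarcer throughout in these 3 fits, with 0.0217%, 1.51% and 1.42% of all intervals lower. Without injury and stimulation replicate 2, the library furthest from its group, 14.4% of all intervals were lower. Of the 11 calls, those of mt-Ti, mt-Tn and mt-Co2 were lost in that fit.

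The 2 stimulated groups were not separated by the test. Between injury with stimulation and stimulation alone 0 members were called with edgeR, with 2.21% of all intervals called higher and 1.85% lower, while 19 had an unadjusted p under 0.05, against 19.5% of all intervals. DESeq2 called 9 higher, and limma voom 8 higher and 3 lower, with 6.39% and 7.26% of all intervals called higher by these tools. Voom called 7.94% of all intervals lower. All 13 mRNAs were higher in the injured and stimulated libraries, by 0.45 to 2.18 on the log2 scale, and 7 of them did not overlap between the groups, against 9.4% of all intervals. This direction did not hold once a trend with GC content and length, described below, was removed: 7 of the 13 were then below 0, among them all 5 outside the copied stretch. The closest to the threshold were mt-Ty (log2 fold change 0.73, adjusted p = 0.068), mt-Co1 (0.70, adjusted p = 0.072) and mt-Tp (0.66, adjusted p = 0.073). Leaving out stimulated replicate 2 gave 8 calls, with 1.03% of all intervals called higher and 1.03% lower. Leaving out injury and stimulation replicate 2 gave 6, with 6.34% of all intervals called higher and 6.76% lower.

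**Figure D3:**
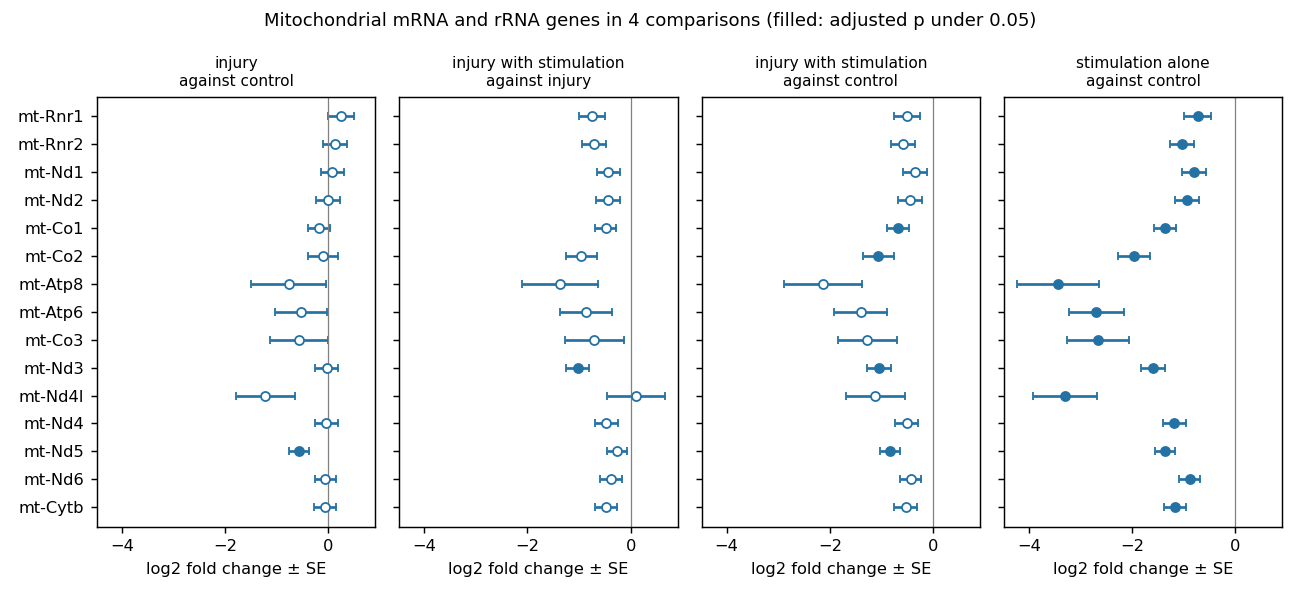
Log2 fold changes with standard errors of the 13 mRNA and 2 rRNA genes in 4 comparisons, filled where the adjusted p was under 0.05. All 15 are filled for stimulation alone against control, 4 for injury with stimulation against control, and 1 in each of the others.

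The difference that went with stimulation was smaller in injured mice than in uninjured mice for 4 genes by a test of the interaction, with 6.86% of all intervals called in that direction and 12.3% in the other. A positive value means a less negative change with stimulation after injury. mt-Nd5 had an interaction of 1.11 ± 0.27 on the log2 scale (adjusted p = 0.012), and no omitted library ended that call (adjusted p at most 0.044 over 12 fits). Its level was already lower after injury, at 14469.9 to 17409 CPM, and went to 12202 to 13977 with stimulation, whereas without injury it went from 18701 to 26278 down to 7673 to 10407. The others were mt-Nd4l (3.40 ± 0.83, adjusted p = 0.021), mt-Ty (1.04 ± 0.31, adjusted p = 0.027) and mt-Co1 (0.88 ± 0.30, adjusted p = 0.048), which lost the call in 3, 5 and 9 of the 12 such fits. Of the 36 members 33 had a positive interaction, against 47.6% of all intervals. With the trend in GC content and length removed 24 were positive, and 7 of the 13 mRNAs were negative. The 2 arms share no library here, but the comparisons against control above share the same 3 controls.

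The 13 mRNAs were also compared by their shares of the summed mRNA counts. mt-Co1 made up 40.8% to 41.3% of mRNA counts in controls and 39.0% to 40.4% after injury. With stimulation its share was 36.3% to 41.0% in injured mice and 35.3% to 38.7% in uninjured mice. mt-Cytb stayed between 18.5% and 20.2% in all 12 libraries. mt-Nd1 took 9.06% to 9.46% in controls and 11.2% to 13.2% with stimulation alone, with no overlap, and mt-Nd6 3.38% to 3.56% against 4.26% to 4.45%. mt-Nd5 took 8.92% to 9.60% in controls and 6.73% to 6.89% after injury, the lowest group, and its injury and stimulation libraries spread from 6.83% to 9.40%. These shares describe the libraries and were not tested.

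Per kilobase of gene, the order of mean levels in controls was mt-Co1 (66844 CPM per kilobase), mt-Cytb (41266), mt-Nd1, mt-Nd4, mt-Nd6, mt-Nd2, mt-Nd5, mt-Atp8, mt-Atp6, the rRNAs, mt-Co2, mt-Co3, mt-Nd4l and mt-Nd3 (288). The 6 mRNAs inside the copied stretch (mt-Co2, mt-Atp8, mt-Atp6, mt-Co3, mt-Nd3 and mt-Nd4l) thus held the lowest places among mRNAs. They are cut from the same precursor as their neighbours.

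The genes in the copied stretch also differed more between groups. With stimulation alone against control their log2 fold changes ran from -3.44 to -1.60 (median -2.68), while the 5 mRNAs outside it (mt-Nd1, mt-Nd2, mt-Nd5, mt-Nd6 and mt-Cytb) ran from -1.36 to -0.80 (median -0.94). mt-Co1 and mt-Nd4, which cross its edges, were at -1.37 and -1.18. The 6 genes together made up 2.13% to 2.29% of mRNA counts in controls and 1.41% to 1.94% after injury. With stimulation they made up 0.883% to 1.82% in injured mice and 0.706% to 0.963% in uninjured mice. Standard errors inside the stretch reached 0.80, against 0.24 outside it. One nuclear interval may offer a view from the other side. In the GRCm39 counting models, the identifier deposited as Col19a1 has an exon at chr1:24614414-24614540. In GRCm38 the same position numbers fall within the pseudogene Gm10925, which is a copy of mt-Atp6. The interval holds reads of the pseudogene only where reads aligned to GRCm38 were counted in GRCm39 intervals, and the build of the alignments was not given. At GRCm38 positions other parts of the identifier lie over exons of Col19a1 itself. The identifier was at 308, 208 and 385 CPM in controls and 59.7, 71.7 and 39.6 in stimulated libraries (log2 fold change -2.40 ± 0.32, adjusted p = 0.00015). The difference between genes inside and outside the stretch was not tested, and neither was the part that reads fitting both places have in it.

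The base composition of transcripts went along with the fold changes, and the mitochondrial genes lie at its low end. Their mRNAs have a GC content of 31.9% to 41.1%, and of the 4764 named nuclear genes that were tested 465 had 41.1% or less. With stimulation alone against control, the median log2 fold change of these 465 was -0.79 and 51.6% of them were called lower. The 5 mRNAs outside the copied stretch, with their median of -0.94, were close to this level. After injury the 465 had a median of -0.48 and 34.4% were called lower, whereas the same 5 mRNAs had a median of -0.06. For injury with stimulation against injury, the low-GC nuclear genes had a median of 0.03 and the 5 mRNAs of -0.43. Across named nuclear genes, which are not independent replicates, Spearman's rho of fold change with GC was 0.63, 0.45 and -0.10 in these 3 comparisons. For the interaction the 465 had a median of 0.84, 35.7% of them were called higher, and rho was -0.58.

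**Figure D4:**
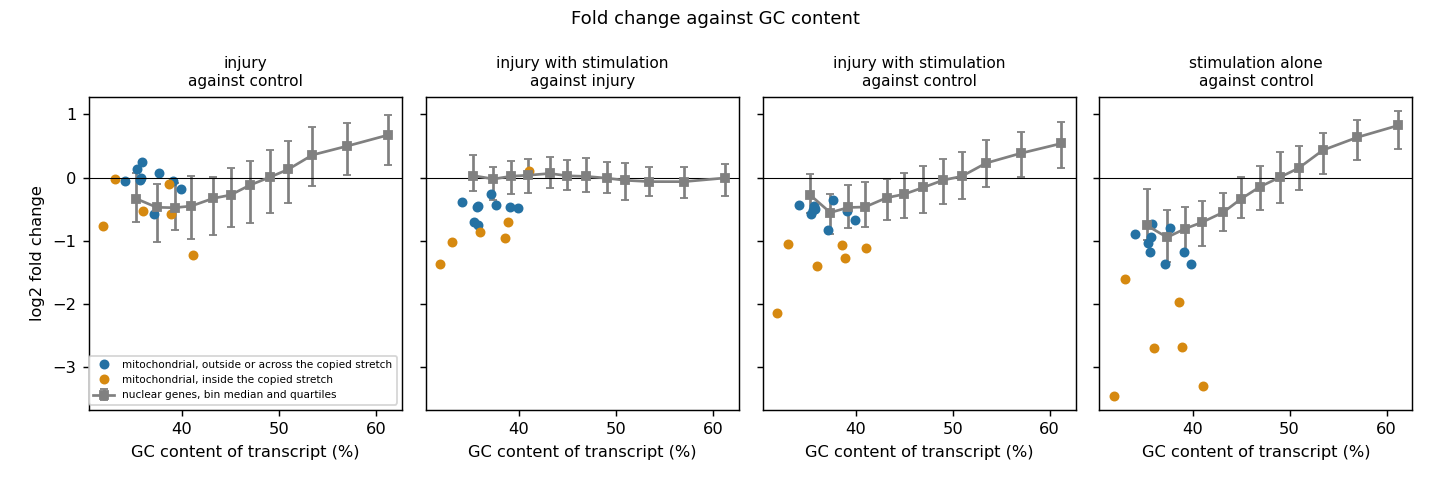
Log2 fold change against GC content (%) in 4 comparisons, for the mitochondrial mRNA and rRNA genes (coloured points) and for named nuclear genes (grey squares are bin medians, bars are quartiles). With stimulation alone mt-Rnr1, mt-Nd1, mt-Nd2, mt-Nd6 and mt-Cytb lie within the quartiles of nuclear genes of like GC content. mt-Co1, mt-Nd4, mt-Nd5 and mt-Rnr2 lie below the lower quartile. In injury with stimulation against injury most genes outside the copied stretch lie below the lower quartile of nuclear genes of like GC content.

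When the trend with GC content and length was taken from the nuclear genes and removed, the calls were mostly lost. For stimulation alone against control 1 member, mt-Ts1, was then called (log2 fold change -2.07, adjusted p = 0.045), against 27 on the same genes with no trend removed. Calls fell over all genes in these fits too, from 13.1% called lower without the removal to 3.25% with it. With the trend removed, the 5 mRNAs outside the copied stretch ran from -0.38 to 0.39, and 3 of them were above 0. mt-Co1 and mt-Nd4, which cross its edges, were at -0.45 (edgeR adjusted p = 0.089) and -0.078 (adjusted p = 0.83). The 6 inside the stretch were all still below 0, from -2.57 to -0.41. So were the 13 tRNAs called before, from -2.07 to -0.31, but with a median standard error of 0.47 against 0.23 without the removal. In injury with stimulation against injury, all 5 mRNAs outside the stretch stayed below 0, from -0.30 to -0.08, and 0 members were called. The mitochondrial genes were not used to fit the trend, and the tRNA genes, shorter than any of the nuclear genes, were given the shortest nuclear length. Those with a GC content below the nuclear minimum of 31.0% were given that minimum.

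Of 40 nuclear genes for the upkeep, transcription and processing of the mitochondrial genome, 10 could be named by position and 9 were tested. With stimulation alone against control 2 fell and 0 rose, where 11.7% of all intervals were called lower and 18.2% higher. Pnpt1 encodes polynucleotide phosphorylase, an RNA-degrading enzyme of mitochondria, and stood at 57.0, 53.5 and 67.2 CPM in controls and 29.7, 26.0 and 31.3 in stimulated libraries (log2 fold change -1.03 ± 0.15, adjusted p = 0.00025). It was at 37.1, 35.8 and 39.0 CPM after injury (-0.67 ± 0.15, adjusted p = 0.0047) and 36.5, 47.9 and 49.2 after injury with stimulation, and its interaction was 1.29 ± 0.22 (adjusted p = 0.0020). Thus all 3 libraries of each treated group were below the controls. Mterf2, of the family of mitochondrial transcription termination factors, went from 13.5, 9.30 and 12.6 CPM to 4.85, 6.26 and 7.77 with stimulation alone (-0.90 ± 0.26, adjusted p = 0.014). After injury 2 of the 9 rose and 1, Pnpt1, fell. Against the 19.3% and 11.7% of all intervals these counts are near the background. Hsd17b10, which encodes a subunit of the enzyme that cuts tRNAs at their leading end, was at 69.4 to 77.7 CPM against 42.8 to 50.6 in controls (0.64 ± 0.22, adjusted p = 0.036), and Nrf1, a nuclear factor that switches on genes for respiration, at 64.9 to 72.1 against 38.7 to 59.97 (0.43 ± 0.15, adjusted p = 0.041). These 2 calls were lost in 9 and 10 of the 12 fits that left out a library. Injury with stimulation against injury called 0 of the 9 with edgeR, and against control 0. Against stimulation alone 1 was higher, Pnpt1 (0.62 ± 0.16, adjusted p = 0.034), a call lost in 8 of the 12 such fits. Once the trend with GC content and length was taken out, Pnpt1 no longer passed in any of these comparisons, at -0.23 for stimulation alone and -0.30 for injury. Mterf2 (-0.16) and Hsd17b10 (0.35) did not pass either, and Nrf1 did (0.76, adjusted p = 0.0073).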

How the data were processed

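The authors deposited gene counts, whole numbers per identifier in 12 tables, 1 per library. featureCounts 2.0.6 made them, per the file headers, with paired input, counting single reads, unstranded, with reads allowed in several overlapping genes and reads placed at several positions left out, on Ensembl 110 gene models of GRCm39. FastQC, DESeq2 and Salmon 1.10.2 are named by the submitters' processing notes. The build and aligner of the alignments were not given in the sources used here. Per the labels the RNA was poly(A) enriched and read as pairs of 150 bp.

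A nuclear interval took the name of a GRCm38 gene (GENCODE M21) when it lay over at least 100 bp of exons of that gene alone, and the interval over the most bases won, which named 9912 genes. Exact copies of mitochondrial windows of 150 bases were sought in the M21 transcripts, both strands. Tests used edgeR 4.0.16 (robust quasi-likelihood, TMM, filterByExpr) in 1 fit of 12 libraries with group means, and Benjamini-Hochberg adjustment over 13053 intervals. The common biological coefficient of variation was 0.235. limma 3.58.1, DESeq2 1.42.0, mgcv 1.9.3, R 4.3.3, Python 3.11.15, numpy 2.4.6, pandas 2.3.3, matplotlib 3.10.9 and bedtools 2.31.1 were also used. The fit was tested on simulated data. No 2 libraries of the same group had counts that agreed within sampling noise, and pairs across groups were not checked. Injury and stimulation replicate 2 stood furthest from its group, with a chi-squared per degree of freedom over genes of 71.0 and 47.8. The other pairs within a group had 8.26 to 32.7. CPM values use TMM-scaled totals. The rule for named genes takes all mRNA and rRNA members, tRNAs called in any comparison and the 3 highest tRNAs. The members, gene lists and alternatives were chosen with earlier results of these data known. Some of the alternatives were chosen after seeing the data, namely the GC and length trend from transcripts and its fit on the same genes without removal.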

Additional observations from a re-analysis of the deposited data

Results flagged for a closer look

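In 4 of the 36 tested genes the difference between stimulated and unstimulated libraries was not the same with and without injury, by the edgeR interaction test with Benjamini-Hochberg adjustment. The interaction on the log2 scale was 1.11 for mt-Nd5 (adjusted p = 0.012), 3.40 for mt-Nd4l (adjusted p = 0.021), 1.04 for mt-Ty (adjusted p = 0.027) and 0.88 for mt-Co1 (adjusted p = 0.048). In all 4 the change with stimulation was more negative without injury. mt-Nd4l was at 110.1, 218 and 94.2 CPM after injury and 64.3, 185 and 205 after injury with stimulation, 2 groups that overlap, and it lies in the stretch copied on chromosome 1. Low-GC nuclear genes moved in the same direction, with a median interaction of 0.84 over 465 genes and 35.7% of them called higher. None of the 4 passed once the trend in GC content and length was removed (0.31 for mt-Nd5, 2.79 for mt-Nd4l, 0.86 for mt-Ty and 0.13 for mt-Co1).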

How the results depend on the processing

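Members called are given with the percentage of all intervals called in the same direction. For injury against control (1) they were 2 with DESeq2 (15.5%), 2 with library totals (15.7%), 4 with only the groups compared (21.9%), 6 with voom (18.8%) and 0 once the trend in GC content and length was removed (6.06%). For injury with stimulation against injury (1) they were 0 with RLE scaling (1.16%), 0 with library totals (0.375%), 8 without a filter (0.856%), 24 with voom (6.3%) and 0 with the trend removed (1.79%). For injury with stimulation against control (11) they were 17 with library totals (3.14%), 17 without a filter (2.18%), 7 with only the groups compared (3.38%), 29 with voom (19.3%) and 0 with the trend removed (1.21%). For injury with stimulation against stimulation alone (0) they were 9 with DESeq2 (6.39%), 1 with library totals (1.27%) and 8 without a filter (0.732%). Voom gave 11 there, of which 8 were higher (7.26%) and the rest lower (7.94%). For the interaction (4) they were 8 with DESeq2 (10.2%), 8 with library totals (6.33%), 10 with voom (13.6%) and 0 with the trend removed (1.15%). For stimulation alone against control (28) only trend removal moved the count by over 1.5 times, to 1 (3.25%). The cause was not tested in any of these.

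The replicate block gave 0 members for injury against control (10%), 6 for injury with stimulation against control (3.82%) and 2 for the interaction (5.22%), and left the other counts within 1.5 times, with 27 for stimulation alone against control. Same-numbered libraries did not deviate together: of 18 pairs, r ran from -0.26 to 0.20 and 1 was over 0.1, and 3 of 12 libraries correlated best with their own number. The file headers number the controls differently from the labels, so which control shares a number with which library is in doubt.

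Leaving out 1 library gave 0 to 3 calls for injury against control (0 without control 1 or 3 or injury 1 or 2, 3 without control 2 or injury and stimulation 2) and 0 to 3 for injury with stimulation against injury (0 without any 1 of the injury libraries, injury and stimulation 3 or stimulated 1). It gave 0 to 15 for injury with stimulation against control, 0 to 8 between the 2 stimulated groups, 22 to 30 for stimulation alone, and 1 to 8 for the interaction (1 without stimulated 1, 8 without control 2 or stimulated 2). Over the same fits, 5.15% to 17.1% of all intervals were called lower for injury against control. For injury with stimulation it was 0.0289% to 1.87% against injury and 0.0217% to 14.4% against control, and for stimulation alone 7.39% to 14.9%. Between the 2 stimulated groups 0.253% to 6.34% were called higher and 0.253% to 6.76% lower. For the interaction 3.15% to 9.53% were called higher. Where an arm kept 2 libraries, the other groups shared the estimate of spread.

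With the trend removed, direction turned in 5 of 36 members for stimulation alone, 7 after injury, 0 for injury with stimulation against injury, 3 against control, 12 between the 2 stimulated groups and 11 in the interaction. Among the genes followed one by one these were, for stimulation alone, mt-Rnr1 (0.45), mt-Rnr2 (0.029), mt-Nd1 (0.34), mt-Nd2 (0.24) and mt-Nd6 (0.39), and mt-Cytb after injury (0.11), between the 2 stimulated groups (-0.075) and in the interaction (-0.19). mt-Cytb after injury ran from -0.18 without control 2 to 0.0065 without control 3. The share after injury with stimulation was 16.4% over the 13 mRNAs alone. Library totals moved the median of all intervals to 0.16 for stimulation alone, 0.17 for injury with stimulation against injury and -0.17 between the stimulated groups. A trend taken from a genome was not run. Depth limited mt-Tk, which was not tested.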
